A study of Manihot esculenta with 9 samples.

Results

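LHY, RVE1 and RVE8 are related transcription factors of the plant circadian clock, and 5 genes of cassava (Manihot esculenta) have one of them as best Arabidopsis match in the deposited annotation. The members were taken as every gene whose match is AT1G01060 (LHY), AT5G17300 (RVE1) or AT3G09600 (RVE8). There were 2 LHY matches, 2 RVE1 matches and 1 RVE8 match among 33033 genes, and all 5 passed the filter on low counts with 23434 genes in all. Their transcripts were measured by RNA sequencing of leaves from 3 groups of 3 libraries: the transgenic line HOE8, the transgenic line HOE1 and wild type (WT). Both lines overexpress MeH1.2, a cassava linker histone, which is a protein that binds DNA between nucleosomes. All plants were 2-month-old seedlings grown from stem pieces in sterile bottles without treatment. Each transgenic group is a single line, named line 8 in the sample titles and line 2 in the genotype label in the case of HOE8. No source used here names the promoter of the transgene, and the labels give no time of day of collection. Nothing in them says that the 3 libraries of a group are separate plants, and p-values then cover the spread among these libraries alone, possibly a technical one.

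In Arabidopsis, LHY and its close relative CCA1 are made around dawn and repress the genes of the day and evening, whose products repress LHY and CCA1 in return. RVE8 is made in the morning too, but activates evening genes, together with the LNK proteins as co-activators. RVE1 is a clock output factor that promotes growth through auxin synthesis and raises genes of protochlorophyllide reduction. These roles were described in Arabidopsis and were not tested in cassava.

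Library totals ran from 13272047 to 16378389 counted reads. Within HOE8, library 1 differed from the others: the median chi-square of a gene was 1.83 and 2.03 in its pairs and 0.766 in the remaining pair, where sampling noise alone gives 0.455. Fold changes and copy ratios of the morning clock genes are therefore also given without library 1, while levels, ranks and list medians are given with all libraries. Manes.08G136300, the most abundant of 6 genes matched to linker histones, had 3157 to 3643 CPM (read counts scaled to a common library size) in HOE8, 4538 to 4746 CPM in HOE1 and 140 to 154 CPM in WT. Summed levels of the leaf mesophyll matches (4 genes of 2 matched loci, none at 0 reads) were 16770 to 18050 CPM in HOE8, 2888 to 2961 CPM in HOE1 and 1016 to 1055 CPM in WT. Shoot meristem matches summed to 62.2 to 65.5 CPM in HOE8, 30.2 to 32.2 CPM in HOE1 and 22.2 to 22.5 CPM in WT, and xylem matches to 30 to 32.6, 10.8 to 12.3 and 16.7 to 18 CPM in the same order. By the median log2 fold change over tested genes, the shoot meristem matches (3.18 in HOE8, 1.49 in HOE1) stood beside the mesophyll matches (3.09 in HOE8, 1.28 in HOE1). Phloem matches summed to 133 to 136, 233 to 246 and 310 to 327 CPM, guard cell matches to 285 to 295, 366 to 380 and 302.8 to 309.6 CPM, and root matches to 13 to 16.6, 11.1 to 12.4 and 14 to 16 CPM. Of 9 tested phloem matches, 5 were higher in HOE8 than in WT and 2 lower (median log2 fold change 0.34), unlike their sum. Of 11 tested guard cell matches, 4 were higher and 4 lower (median 0.19). Over all genes tested, 33.7% were higher and 38.2% lower in HOE8 than in WT. Senescing-leaf matches summed to 227 to 256 CPM in HOE8, 320 to 331 CPM in HOE1 and 1071 to 1102 CPM in WT. Genes at 0 reads in HOE8, HOE1 and WT numbered 2, 0 and 1 of 8 for the shoot meristem, 2, 0 and 2 of 8 for the root, 0, 1 and 1 of 11 for the phloem and 12, 9 and 10 of 19 for the senescing leaf, and none for the xylem and the guard cell. The part of these differences in the results below was not tested, and in bulk leaf RNA fewer cells of a type and less RNA per cell cannot be told apart.

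All 5 morning clock genes were higher in HOE8 than in WT, 4 of them by 36.1-fold or more. All 5 were also higher in HOE1 than in WT, by 1.29-fold to 5.5-fold. The genes did not keep the same order in the lines: the LHY matches had the smallest increases in HOE1 and the RVE1 matches the largest, while in HOE8 the LHY match Manes.01G239000 had the largest. Second place in HOE8 was not resolved between the other LHY match and the RVE8 match, whose log2 fold changes were 6.47 and 6.37 with all libraries but 6.4 and 6.53 without WT replicate 3.

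Manes.01G239000 is one LHY match (chromosome 1, 31921231 to 31932186, coordinates as in the deposited table). It had 1068, 1332 and 1357 CPM in the HOE8 libraries, 8.33, 8.79 and 8.73 CPM in the HOE1 libraries and 5.9, 4.98 and 5.11 CPM in the WT libraries. The groups did not overlap: each HOE8 library lay more than 100 times above each HOE1 and WT library, and the HOE1 libraries lay just above those of WT. In reads, the 3 libraries held 49801 in HOE8, 387 in HOE1 and 250 in WT. The log2 fold change was 7.88 ± 0.12 (SE) in HOE8 against WT (edgeR adjusted p = 2.1e-12), which placed the gene 77th by size of change among the 23434 genes tested. In HOE1 against WT it was 0.69 ± 0.11 (edgeR adjusted p = 0.00016), and the gene stood 8022nd.

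Manes.05G015600 is the other LHY match (chromosome 5, 1123174 to 1136442). It had 1224, 1592 and 1609 CPM in HOE8, 19.8, 22.1 and 22.9 CPM in HOE1 and 16.8, 18 and 15.2 CPM in WT. HOE8 again stood far above the other groups, while HOE1 and WT were separated by less than 2 CPM at their nearest libraries. Its log2 fold change was 6.47 ± 0.13 in HOE8 (edgeR adjusted p = 9.8e-12) and 0.37 ± 0.11 in HOE1 (edgeR adjusted p = 0.012). The HOE1 difference is the one call among the 5 genes that was not stable: without WT replicate 3 it was 0.31 (adjusted p = 0.051), and with limma on log2(FPKM + 1) it was 0.26 (adjusted p = 0.059).

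Together the LHY matches took 0.223%, 0.284% and 0.288% of all counted reads in the HOE8 libraries, 0.00277%, 0.00304% and 0.00311% in HOE1 and 0.00238%, 0.00239% and 0.00211% in WT. Both LHY matches were lowest within HOE8 in library 1, and their coefficients of variation there were 12.8% and 14.7%. The RVE1 and RVE8 matches varied less between the HOE8 libraries, with coefficients of 1.5% to 2.47%, against a median of 8.02% over tested genes of at least 10 CPM in HOE8. That median was not matched for read depth, on which counting error depends. Without HOE8 replicate 1 the log2 fold changes against WT were 7.98 for Manes.01G239000 and 6.59 for Manes.05G015600. They were 5.19 for Manes.01G123100, 2.68 for Manes.02G080700 and 6.35 for Manes.09G079800, so all 5 genes remained higher in HOE8.

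**Figure D1:**
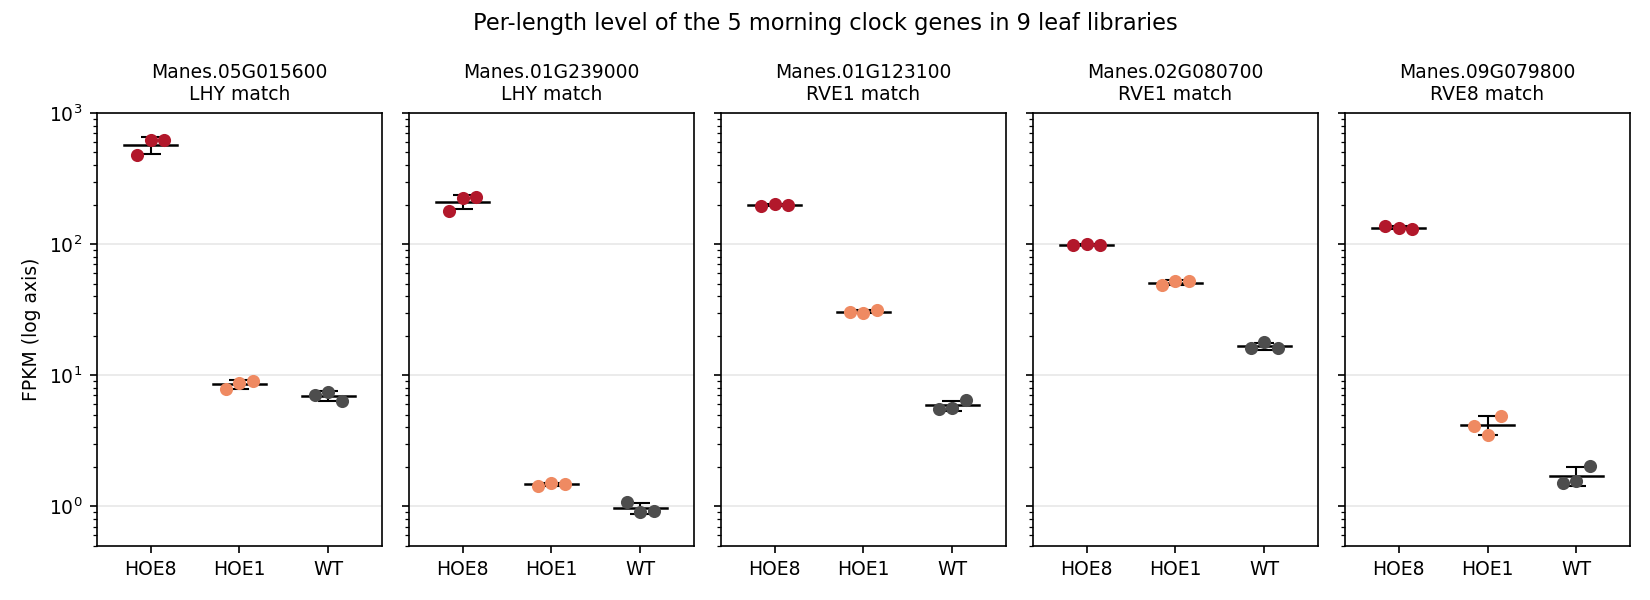
Level per gene length (FPKM, log axis) of each morning clock gene in the 9 leaf libraries; points are libraries, lines and bars are the mean and SD of 3 libraries. The LHY matches have mean FPKM of 573 and 211 in HOE8 against 8.5 and 1.47 in HOE1, close to WT on this axis, while the RVE1 matches form a staircase over the 3 groups.

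The RVE1 matches formed a graded series over the groups. Manes.01G123100 (chromosome 1, 24072212 to 24075626) had 455, 474 and 466 CPM in HOE8, 69.9, 69.5 and 73.2 CPM in HOE1 and 12, 12.4 and 14.2 CPM in WT. No libraries of different groups overlapped, and the HOE1 libraries lay between the other groups on the log scale. Its log2 fold change was 5.17 ± 0.07 in HOE8 (edgeR adjusted p = 1.6e-12) and 2.46 ± 0.07 in HOE1 (edgeR adjusted p = 4.3e-10).

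Manes.02G080700 (chromosome 2, 5999350 to 6002884), the second RVE1 match, had 233, 237 and 230 CPM in HOE8, 113, 122 and 121 CPM in HOE1 and 35.1, 39.4 and 35.3 CPM in WT. The order of the groups was the same as for the first RVE1 match, over a narrower range. The log2 fold change was 2.67 ± 0.06 in HOE8 (edgeR adjusted p = 2.6e-11) and 1.69 ± 0.06 in HOE1 (edgeR adjusted p = 2.5e-09). It was the member with the smallest change in HOE8 and the one with the highest level in WT.

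Manes.09G079800, the RVE8 match (chromosome 9, 14370820 to 14375649), was the least read of the members in each group. It had 193, 188 and 184 CPM in HOE8, 5.72, 4.92 and 6.85 CPM in HOE1 and 1.99, 2.07 and 2.7 CPM in WT. The WT values rest on 29, 32 and 46 reads, and the groups did not overlap. The log2 fold change was 6.37 ± 0.13 in HOE8 (edgeR adjusted p = 9.4e-12) and 1.36 ± 0.14 in HOE1 (edgeR adjusted p = 9.4e-06).

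The counts of higher members are to be read against the whole table, in which large shares of genes differed. In HOE8 against WT, 5 of 5 members were called higher, where 33.7% of all genes tested were called higher, and in 5 of 5 the libraries did not overlap, where 34.3% of genes had every HOE8 library above every WT library. In HOE1 against WT, 5 of 5 were called higher against 31.7% of all genes, with 36.3% of genes not overlapping in that direction. Both comparisons use the same WT libraries, so that they are not independent of each other.

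**Figure D2:**
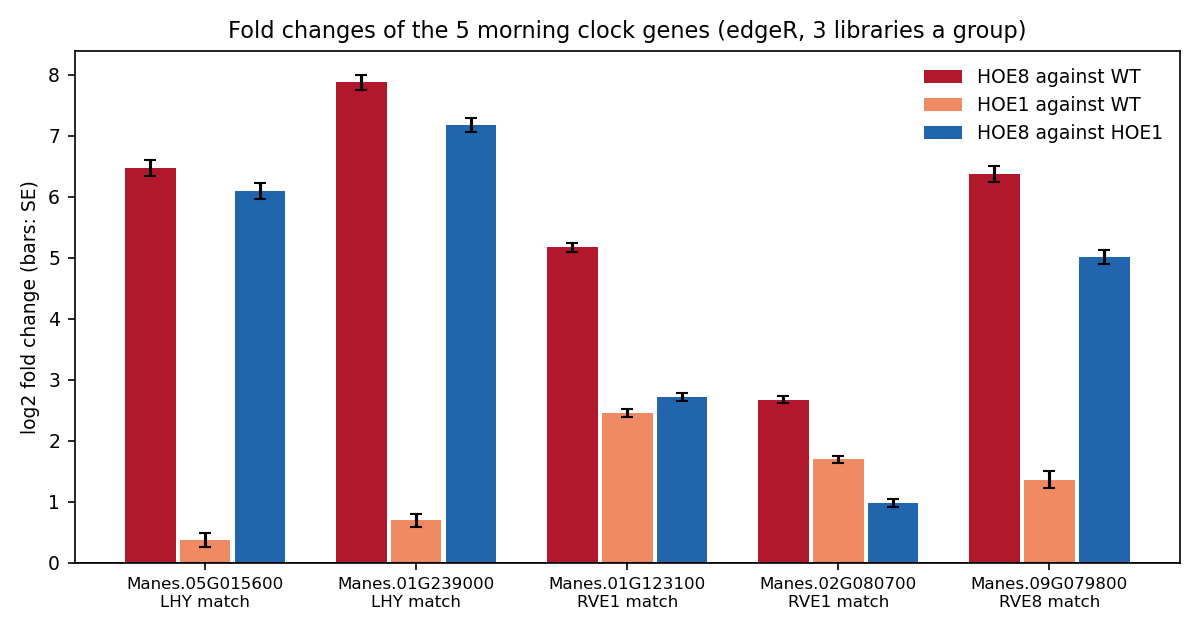
Log2 fold change of each morning clock gene in 3 comparisons (bars: SE, edgeR, 3 libraries a group). The LHY matches reach 6.47 and 7.88 in HOE8 against WT but 0.37 and 0.69 in HOE1 against WT, and Manes.02G080700 is the member whose values in the 3 comparisons are closest together.

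The comparison of HOE8 with HOE1 tests whether the lines differ from each other, with the WT libraries entering only the gene filter, the scaling and the estimate of spread. All 5 genes were higher in HOE8, where 32.7% of all genes tested were called higher and 34.2% did not overlap in that direction. The log2 fold change of Manes.01G239000 was 7.18 ± 0.12 (edgeR adjusted p = 4.3e-12) and that of Manes.05G015600 was 6.09 ± 0.13 (edgeR adjusted p = 2.1e-11). The RVE8 match followed with 5.01 ± 0.12 (edgeR adjusted p = 4e-11). For the RVE1 matches the difference was 2.71 ± 0.07 in Manes.01G123100 (edgeR adjusted p = 5.4e-11) and 0.98 ± 0.06 in Manes.02G080700 (edgeR adjusted p = 7.1e-08). Without HOE8 replicate 1 these differences were 7.29, 6.21, 4.99, 2.73 and 0.98 for the genes in the order just given. The linker histone transcript Manes.08G136300 ran the other way, with 3345 ± 261 CPM in HOE8 and 4617 ± 113 CPM in HOE1 (SD, n = 3 each).

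Levels of different genes were compared as FPKM, which is per length of the gene model. In HOE8, Manes.05G015600 was the highest member at 573 ± 84.5 FPKM (SD, n = 3), followed by Manes.01G239000 at 211 ± 26.9 and Manes.01G123100 at 198 ± 3.92. The libraries of these last genes overlapped, so their order in HOE8 is not resolved. The RVE8 match had 133 ± 3.27 FPKM and Manes.02G080700 had 99.1 ± 1.43 FPKM there. In HOE1 the order was another one: Manes.02G080700 led with 50.9 ± 2.06 FPKM, then Manes.01G123100 with 30.5 ± 0.861, Manes.05G015600 with 8.5 ± 0.632, the RVE8 match with 4.17 ± 0.695 and Manes.01G239000 with 1.47 ± 0.0411. In WT, Manes.02G080700 led too, with 16.6 ± 1.06 FPKM. Manes.05G015600 and Manes.01G123100 came next in WT with 6.95 ± 0.592 and 5.87 ± 0.52 FPKM, and their libraries overlapped. The RVE8 match had 1.71 ± 0.291 FPKM in WT and Manes.01G239000 had 0.962 ± 0.094. Thus an LHY match was the highest member in HOE8 and an RVE1 match in HOE1 and WT.

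By rank in the whole table, Manes.05G015600 was between the 60th and the 100th highest of 33033 genes by FPKM in the HOE8 libraries. It was between the 12096th and 12935th in HOE1 and between the 13656th and 14548th in WT. Manes.01G239000 stood between the 276th and 452nd place in HOE8, between the 19506th and 19667th in HOE1 and between the 21053rd and 21488th in WT. The gene length that the FPKM values imply is 5776 bases for Manes.01G239000 and 2501 bases for Manes.05G015600, so their FPKM ratio depends on gene models of unequal length, while its differences between groups do not.

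The copies of each factor changed by unequal amounts. The ratio of Manes.05G015600 to Manes.01G239000 in FPKM was 2.65, 2.76 and 2.74 in HOE8, 5.48, 5.81 and 6.06 in HOE1 and 6.58, 8.37 and 6.88 in WT. On the log2 scale the ratio was 1.44 ± 0.03 in HOE8, 2.53 ± 0.07 in HOE1 and 2.86 ± 0.19 in WT (SD, n = 3 each). The difference was -1.41 for HOE8 minus WT, -0.32 for HOE1 minus WT and -1.09 for HOE8 minus HOE1, and in each the libraries did not overlap (exact two-sided permutation p = 0.1, the smallest that 3 against 3 libraries allow). Without HOE8 replicate 1 the difference was -1.4 for HOE8 minus WT and -1.07 for HOE8 minus HOE1. Manes.05G015600 was the more abundant LHY match per length in all 9 libraries.

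The RVE1 copies changed places. The FPKM ratio of Manes.01G123100 to Manes.02G080700 was 1.96, 2 and 2.03 in HOE8, 0.621, 0.573 and 0.608 in HOE1 and 0.343, 0.316 and 0.404 in WT. Manes.01G123100 was thus the higher copy in each HOE8 library and the lower copy in each HOE1 and WT library. The log2 ratio was 1 ± 0.03 in HOE8, -0.74 ± 0.06 in HOE1 and -1.5 ± 0.18 in WT (SD, n = 3 each), a difference of 2.5 for HOE8 minus WT, 0.77 for HOE1 minus WT and 1.73 for HOE8 minus HOE1 (exact two-sided permutation p = 0.1 for each, the smallest possible). Without HOE8 replicate 1 the difference was 2.52 for HOE8 minus WT and 1.75 for HOE8 minus HOE1. Copies of similar sequence may have shared reads, since no source used here states how multiply mapped reads were counted. The model lengths of the RVE1 copies are close, at 2286 and 2293 bases.

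**Figure D3:**
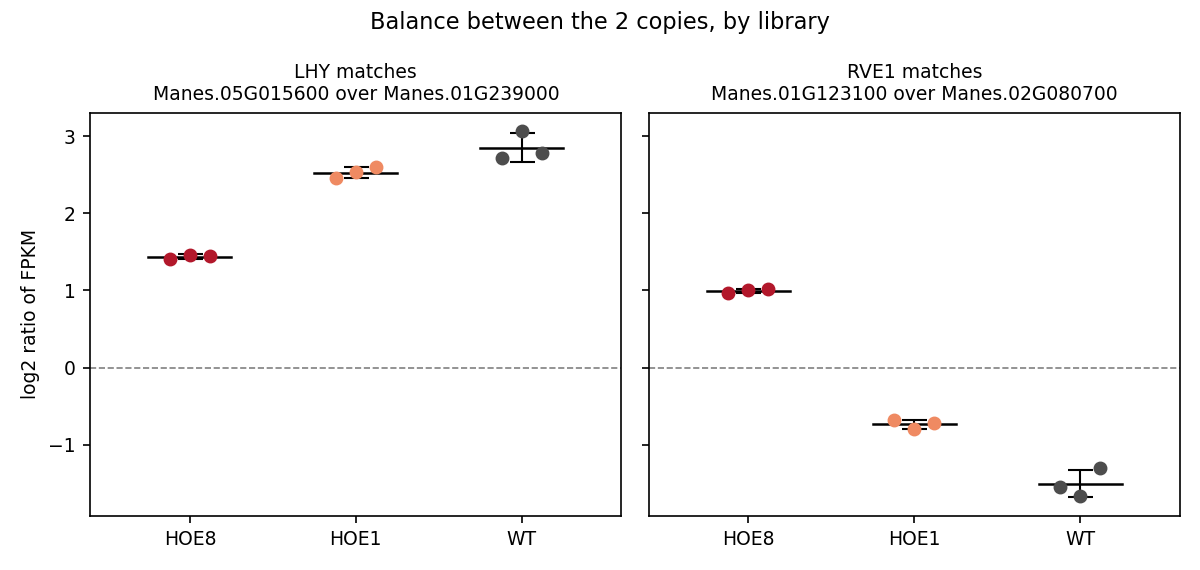
Log2 ratio of FPKM between the copies of LHY (left) and RVE1 (right) in each library; lines and bars are the mean and SD of 3 libraries, and the dashed line marks equal levels. The LHY ratio is lowest in HOE8 but above 0 in every library, whereas the RVE1 ratio is above 0 in the HOE8 libraries and below 0 in the HOE1 and WT libraries.

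No gene model overlapped a member in the deposited coordinates. The RVE1 matches had the same neighbours on either side, a match of AT5G17310 (UDP-glucose pyrophosphorylase 2, an enzyme of sugar nucleotide synthesis) and a match of AT5G17290 (the autophagy protein Apg5). These neighbours differed less than the RVE1 matches in both lines. Next to Manes.01G123100, the pyrophosphorylase match Manes.01G123000 had log2 fold changes of -0.52 in HOE8 and -1 in HOE1, and the autophagy match Manes.01G123200 had 0.43 and 0.55. Next to Manes.02G080700, Manes.02G080600 had 0.15 in HOE8 and -0.48 in HOE1, and Manes.02G080800 had 0.38 and 0.42. All of these passed the threshold in edgeR, with adjusted p-values of at most 0.028. The nearest gene to the RVE8 match, Manes.09G079900 at 768 bases, was not called in either line (log2 fold change 0.15 in HOE8, adjusted p = 0.54, and -0.35 in HOE1, adjusted p = 0.17).

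Each LHY match lies near a gene matched to a pseudo-response regulator (PRR), a family of day-phased repressors of LHY and CCA1. This pairing was noticed after values had been seen. Manes.01G239500, matched to PRR9, begins 20435 bases beyond the end of Manes.01G239000, with 4 gene models between them. Manes.05G016200, matched to PRR5, begins 32310 bases beyond Manes.05G015600, with 5 between. The windows from 2 genes before the LHY match to 2 after the PRR gene shared 4 Arabidopsis matches, LHY included. Manes.01G239500 had 172, 169 and 187 CPM in HOE8, 97.3, 96.3 and 113 CPM in HOE1 and 54.5, 61 and 61.7 CPM in WT. Its log2 fold change was 1.57 ± 0.08 in HOE8 and 0.79 ± 0.08 in HOE1 (edgeR adjusted p = 1.2e-08 and 6e-06). Manes.05G016200 had 57.7, 64.1 and 66.6 CPM in HOE8, 6, 5.18 and 6.01 CPM in HOE1 and 3.09, 3.17 and 3.99 CPM in WT. Its log2 fold change was 4.19 ± 0.11 in HOE8 and 0.74 in HOE1. These PRR genes were thus higher in both lines, with non-overlapping libraries. The PRR5 match of highest mean FPKM is another gene, Manes.01G043200, which is not beside an LHY match. It had 7.19, 9.46 and 7.63 CPM in HOE8, 98.5, 108.1 and 102.2 CPM in HOE1 and 28.2, 30.4 and 26.1 CPM in WT. It was lower in HOE8 and higher in HOE1 than in WT, with log2 fold changes of -1.8 and 1.87 (edgeR adjusted p = 3.2e-08 and 2.4e-08).

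Of the 6 tested genes between these pairs, 5 were higher in HOE8 than in WT and 1, Manes.05G016000, was lower with a log2 fold change of -0.38. In HOE1, 2 were higher, 2 lower and 2 not called. Over all genes tested, 33.7% were higher and 38.2% lower in HOE8, and 31.7% higher and 32.7% lower in HOE1. Between the chromosome 1 pair, the bHLH transcription factor gene Manes.01G239200 differed more in HOE8 than the PRR9 match, with a log2 fold change of 3.59 (edgeR adjusted p = 1.9e-05) on 75 reads in HOE8 and 7 in WT. Directly beyond each LHY match stands a match of a photosystem I subunit P gene. Manes.05G015700 had log2 fold changes of 1.07 in HOE8 and 1.25 in HOE1, and Manes.01G239100 had 1.65 in HOE8 (edgeR adjusted p = 6.8e-06) and 0.23 in HOE1 (adjusted p = 0.32). On the other side of the LHY matches, Manes.05G015500, a kinase gene 371 bases from Manes.05G015600, was lower in HOE8 by a log2 fold change of -0.35 and higher in HOE1 by 0.58. Manes.01G238900, 2380 bases from Manes.01G239000, was called in neither line (adjusted p = 0.087 in HOE8 and 0.0502 in HOE1).

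**Figure D4:**
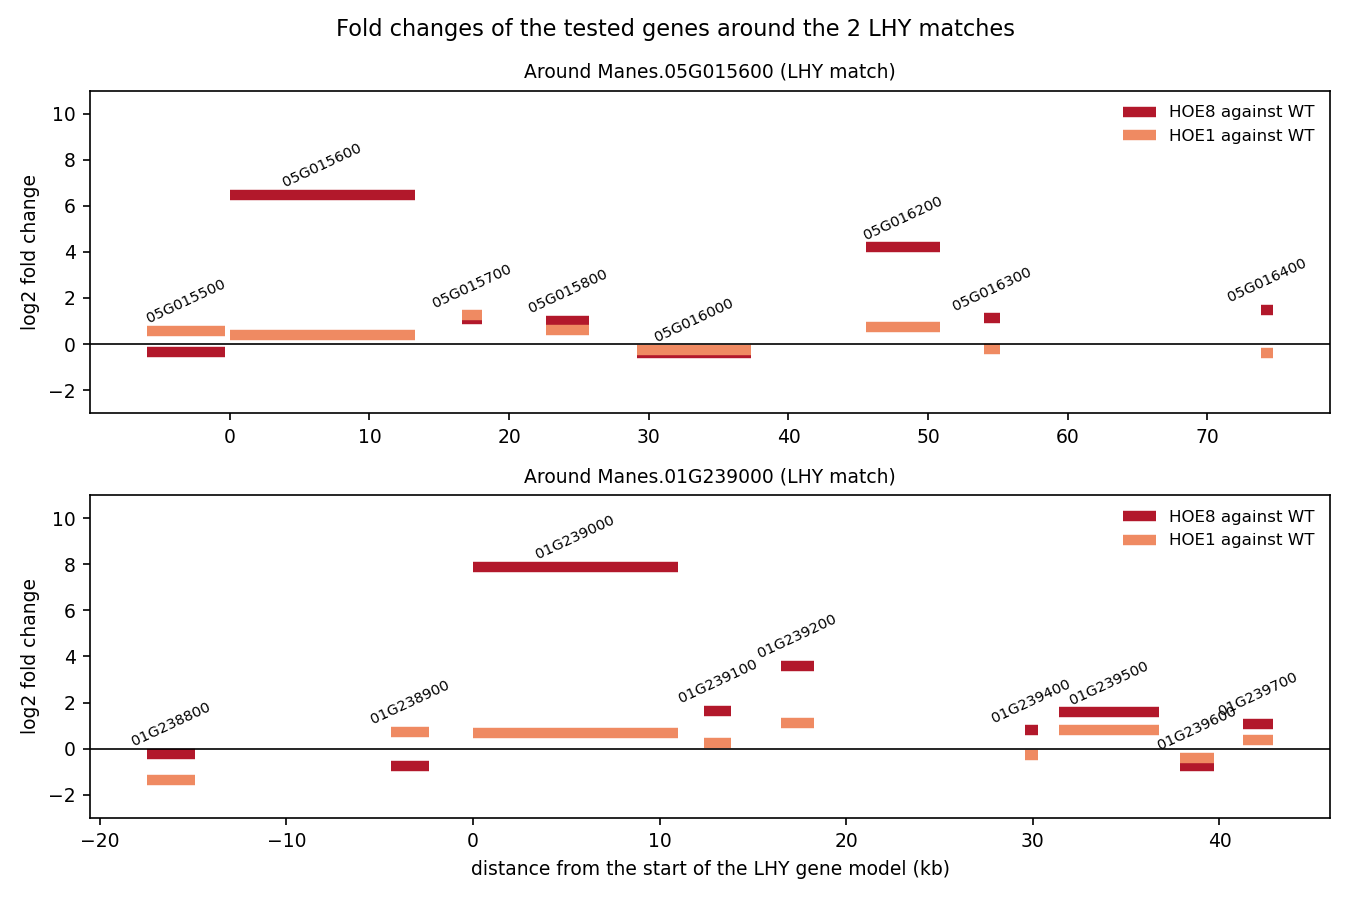
Log2 fold change of each tested gene around the LHY matches, drawn as a bar over its gene model by distance from the start of the LHY model in kilobases, for HOE8 against WT and HOE1 against WT. The LHY genes stand above their neighbours in HOE8 at 6.47 and 7.88, and the PRR matches 05G016200 and 01G239500 reach 4.19 and 1.57.

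Other factors of the family differed by smaller amounts in HOE8, but not in HOE1, where the RVE6 match Manes.14G022100 reached a log2 fold change of 0.82 (edgeR adjusted p = 5.9e-06), above both LHY matches. In the counts that follow, the shares over all genes tested were 33.7% higher and 38.2% lower in HOE8 against WT, 31.7% higher and 32.7% lower in HOE1 against WT, and 32.7% higher and 33.8% lower in HOE8 against HOE1. Of the other 8 loci of the CCA1 and REVEILLE family, 1 was the best match of any gene: RVE6, a close relative of RVE8, had 4 matches. Of these, 3 were called higher in HOE8 against WT and 4 in HOE1 against WT, with median log2 fold changes of 0.32 and 0.51, beside medians over all genes tested of -0.0458 and -0.00465. The RVE6 match of the highest FPKM, Manes.05G030200, had 88.3, 85.7 and 85.1 CPM in HOE8, 41.2, 43.6 and 40 CPM in HOE1 and 27.4, 30.3 and 25.4 CPM in WT. Its log2 fold change of 1.64 ± 0.07 in HOE8 (edgeR adjusted p = 3.1e-09) was below those of all 5 LHY, RVE1 and RVE8 matches.

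The LNK genes, whose Arabidopsis products bind RVE8 and RVE4 and help them activate targets, rose beside the RVE8 match in HOE8. All 5 matches of the 4 LNK loci were higher in HOE8 than in WT, with a median log2 fold change of 4.47. In HOE1, 4 were higher and 1 was lower, with a median of 0.53. The LNK3 match Manes.11G007700 had 108, 113 and 118 CPM in HOE8, 1.27, 0.721 and 1.23 CPM in HOE1 and 0.617, 0.582 and 0.587 CPM in WT, a log2 fold change of 7.55 ± 0.13 in HOE8 (edgeR adjusted p = 4.5e-12) and 0.84 ± 0.22 in HOE1 (adjusted p = 0.021). The LNK4 match Manes.04G156300 averaged 285 CPM in HOE8, 18 CPM in HOE1 and 9.64 CPM in WT, and the LNK2 match Manes.04G165400 averaged 161.5, 10.5 and 7.26 CPM in the same order. Their log2 fold changes in HOE8 were 4.88 and 4.47. The LNK1 matches changed less, with log2 fold changes of 1.98 in Manes.06G010600 and 0.57 in Manes.14G166300 in HOE8.

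Day and evening clock genes were split. Of 19 tested matches of 11 loci, 4 were higher and 13 lower in HOE8 against WT (median log2 fold change -1.8, the same with a gene of 0 reads in HOE8 set at its bound), and 11 were higher and 2 lower in HOE1 against WT (median 0.47). Setting HOE8 against HOE1, 3 were higher and 14 lower. The evening gene GI, matched by Manes.18G095000, averaged 1.05 CPM in HOE8, 466 CPM in HOE1 and 480 CPM in WT, and was not called in HOE1 (log2 fold change -0.04, adjusted p = 0.64). The FKF1 match Manes.15G134900, a light-sensing F-box protein, averaged 2.28 CPM in HOE8, 239 CPM in HOE1 and 107 CPM in WT. TOC1 is the evening repressor that closes the loop with LHY in Arabidopsis. Its match Manes.06G089800 differed less in HOE8, with log2 fold changes of 0.4 there and 0.47 in HOE1. The other TOC1 match, Manes.14G081500, averaged 51.1 CPM in HOE8, 98 CPM in HOE1 and 55.6 CPM in WT. The PRR7 match Manes.04G027400 had log2 fold changes of -3.05 in HOE8 and 0.64 in HOE1, opposite in sign between the lines. The PRR7 matches Manes.08G001600 and Manes.07G105100 averaged 41.6 and 0.554 CPM in HOE8, 125 and 22.2 CPM in HOE1, and 74.6 and 20 CPM in WT. Signs were also opposite for the LUX match Manes.01G170000, with -2.67 and 1.39. The other LUX match, Manes.02G129800, averaged 6.13 CPM in HOE8, 43.7 CPM in HOE1 and 44.1 CPM in WT. The ELF3 match Manes.16G077200, of another part of the evening repressor complex, was called in neither line (adjusted p = 0.082 in HOE8 and 0.064 in HOE1). The other ELF3 match, Manes.04G136600, averaged 63.7 CPM in HOE8, 97.4 CPM in HOE1 and 78 CPM in WT. The ELF4 match Manes.07G129600 had 0 reads in HOE8, 325 in HOE1 and 511 in WT. The ELF4 match Manes.10G013000 averaged 13.4 CPM in HOE8, 16.3 CPM in HOE1 and 41.2 CPM in WT, with HOE1 replicate 3 at 1.035 CPM.

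Of 15 loci known as outputs of the morning factors, 7 were the best match of any gene, and 13 of their 15 matches were tested. Most of the tested matches were of cycling DOF factors (CDF) and protochlorophyllide oxidoreductases, described below, so the counts and medians lean on these families. In HOE8 against WT, 9 were higher and 3 lower, with a median log2 fold change of 1.92, and in HOE1 against WT 9 were higher and 2 lower, with a median of 1.07. Genes of protochlorophyllide oxidoreductase, an enzyme of chlorophyll synthesis, were higher in both lines. The PORC match Manes.13G148200 averaged 106 CPM in HOE8, 73.8 CPM in HOE1 and 28 CPM in WT, and the PORA match Manes.03G113300 averaged 250, 106 and 92.4 CPM, with overlapping libraries in HOE1 and WT (log2 fold change 0.2, edgeR adjusted p = 0.033). The match of YUC8, the auxin synthesis gene that RVE1 activates in Arabidopsis, was barely read: Manes.13G041900 averaged 0.826 CPM in HOE8, 0.576 CPM in HOE1 and 1.29 CPM in WT. It was lower in HOE1 (log2 fold change -1.15, adjusted p = 0.018) and not called in HOE8 (-0.64, adjusted p = 0.13). Of the cycling DOF factors, flowering repressors that accumulate in the morning in Arabidopsis, the CDF2 match Manes.01G092100 averaged 156 CPM in HOE8, 11.8 CPM in HOE1 and 3.55 CPM in WT. The COR27 match Manes.18G037600, of a cold-regulated clock-linked gene, had log2 fold changes of -5.73 in HOE8 and 1.07 in HOE1. The other COR27 match, Manes.10G080100, averaged 3.88 CPM in HOE8, 49.4 CPM in HOE1 and 24.5 CPM in WT.

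Of 17 tested matches of regulators of LHY and CCA1, 8 were higher and 3 lower in HOE8 against WT. In HOE1 against WT, 9 were higher and 3 lower. Their median log2 fold changes were 0.15 in HOE8 and 0.27 in HOE1, beside -0.0458 and -0.00465 over all genes tested. The TCP20 match Manes.04G088500, of a factor that activates CCA1 in Arabidopsis, had log2 fold changes of -1.18 in HOE8 and 0.82 in HOE1, and the TCP22 match Manes.18G103100 had 0.78 in HOE8 and -0.63 in HOE1. The LWD1 match Manes.11G072300, of a WD-repeat co-activator of CCA1, had -0.83 and 0.57. Other matches of TCP20 and LWD1 did not all follow these. The LWD1 match Manes.04G096000 averaged 47.25 CPM in HOE8, 28.77 CPM in HOE1 and 31.35 CPM in WT. In the same order, the LWD1 match Manes.09G052400 averaged 0.0245, 0.0667 and 2.8 CPM. The TCP20 match Manes.12G007700 averaged 27.6, 14.5 and 16.7 CPM, and the TCP20 match Manes.11G083000 averaged 46.9, 59.7 and 46.1 CPM. HY5, a light-signalling factor matched by Manes.16G120300, averaged 46.4 CPM in HOE8, 9.73 CPM in HOE1 and 17.3 CPM in WT. Of 5 photoreceptor matches, 2 were higher and 2 lower in HOE8 and 3 were higher and 1 lower in HOE1. The blue-light receptor match CRY1, Manes.02G152400, had log2 fold changes of 2.19 in HOE8 and 1.36 in HOE1.

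**Figure D5:**
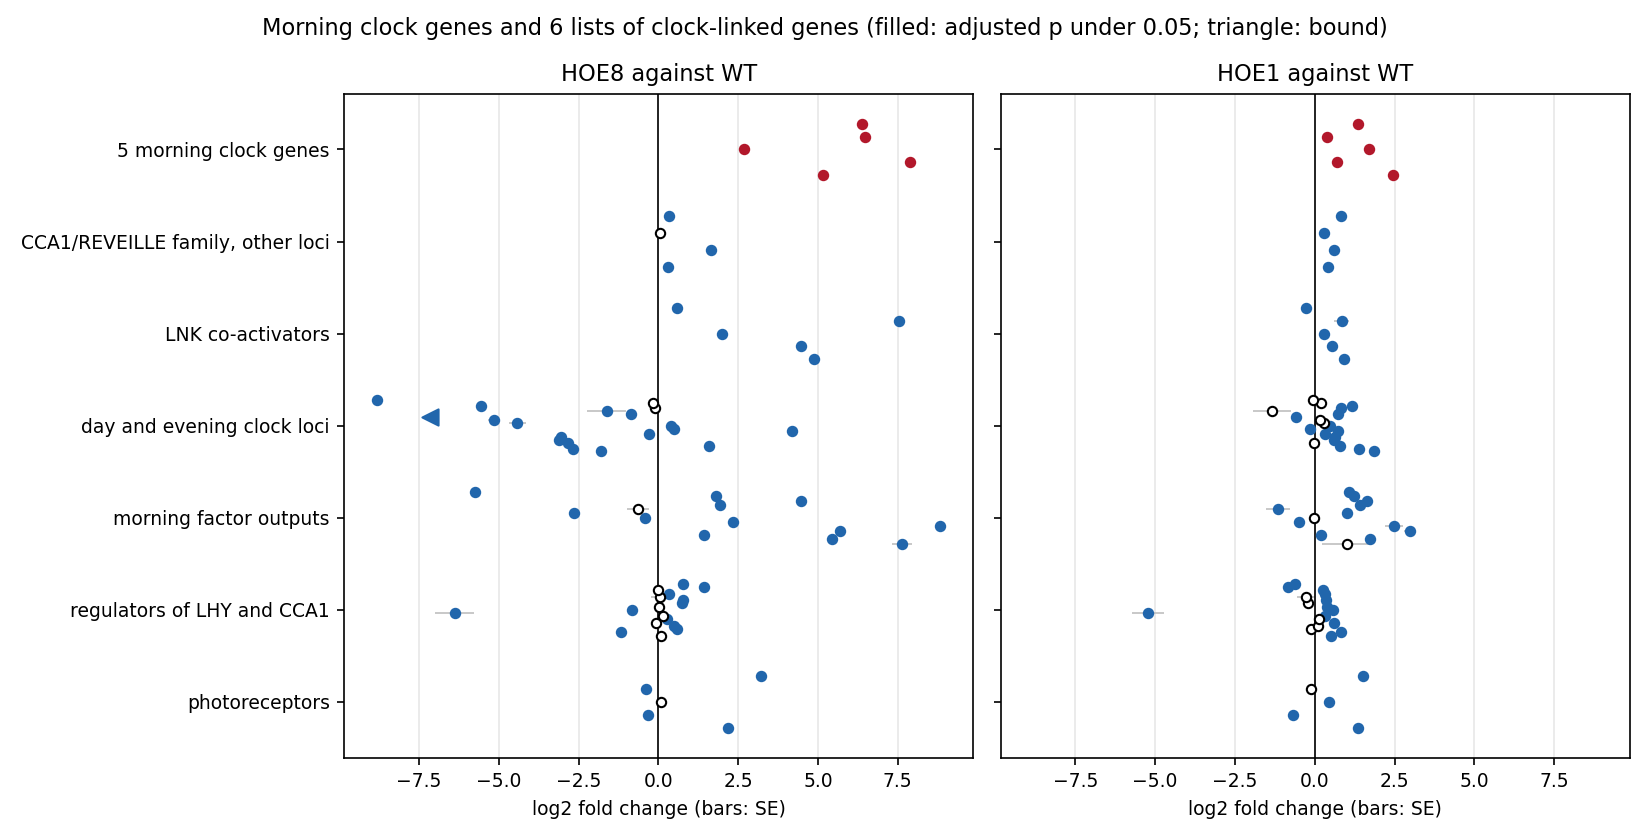
Log2 fold change (bars: SE) of the 5 morning clock genes (red) and of the tested genes of 6 lists of clock-linked genes (blue), in HOE8 against WT (left) and HOE1 against WT (right); filled points passed an adjusted p of 0.05, open points did not, and the triangle is a gene with 0 reads in HOE8 drawn at its bound. In HOE8 the morning genes and all LNK matches lie to the right of 0 and most day and evening genes to the left, while in HOE1 the 5 morning genes lie between 0.37 and 2.46 and the list medians between 0.27 and 1.07.

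Likeness of pattern was measured as the root mean square difference of log2 CPM over the 9 libraries, after centring each gene, among genes of at least 1 CPM on average. A prior count of 2 was added before the log, which shrinks differences at low counts. The genes nearest to Manes.01G239000 were Manes.14G018500, a plastid sigma factor E (0.24), the ABC transporter gene Manes.13G085800 (0.34) and the LNK3 match Manes.11G007700 (0.35). The other LHY match was 8th nearest at 0.6. In WT, Manes.14G018500, Manes.13G085800 and Manes.11G007700 averaged only 0.9018, 0.6635 and 0.5955 CPM, on 42, 31 and 28 reads. Nearest to Manes.05G015600 were Manes.14G112200, an aldehyde dehydrogenase 11A3 (0.3), Manes.12G137800, a myo-inositol-1-phosphate synthase 3 (0.33), and Manes.03G160100, matched to proton gradient regulation 5 of photosynthetic electron flow (0.36). The RVE8 match was closest to Manes.04G011000, a magnesium transporter 10 (0.28), Manes.06G016800, a ferric reduction oxidase 6 (0.29), and the same aldehyde dehydrogenase gene Manes.14G112200 (0.32).

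The RVE1 matches had other neighbours in pattern. Manes.01G123100 was closest to the pectin methylesterase gene Manes.04G053900 (0.13), the photosystem II antenna gene Manes.15G184200 (0.19) and the transporter gene Manes.14G131900 (0.2). Manes.02G080700 was closest to the BURP-domain gene Manes.06G160100, the rhodanese-domain gene Manes.01G037500 (0.096 each) and Manes.05G125200, the B subunit of chloroplast glyceraldehyde-3-phosphate dehydrogenase (0.11). The last gene averaged 240 CPM in HOE8, 111 CPM in HOE1 and 34.4 CPM in WT, beside 234, 118 and 36.6 CPM for Manes.02G080700. From its RVE1 partner Manes.01G123100, Manes.02G080700 differed by 1.05, and from the LHY matches by 2.71 and 2.16. These distances rest largely on the 3 group levels, since the libraries within a group lie close together.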

How the data were processed

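The authors deposited 1 table for the series, holding raw read counts per gene and FPKM (reads per length of gene model and library size) for the 9 libraries. The submitters' processing notes name HISAT2 2.0.4 and StringTie 1.3.0; no source used here gives the genome build, counting settings or strand use. Deposited FPKM equalled the count divided by a fixed length and the library total within 0.1% for all 28739 genes with reads in at least 2 libraries. Gene names are the Arabidopsis matches of the table.

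Counts were tested with edgeR 4.0.16 (R 4.3.3): filterByExpr at a minimum count of 10, TMM scaling, and 1 quasi-likelihood fit to all 9 libraries, without a replicate block. P-values are two-sided and were adjusted by Benjamini-Hochberg over 23434 genes (threshold 0.05). SE is the log2 fold change divided by the root of F. The script was tested on simulated data in which most genes were unchanged, unlike the data here. That test therefore did not cover scaling where many genes differ. Alternatives used limma 3.58.1 and DESeq2 1.42.0. A bound takes 3 reads for a group with 0 reads and covers counting error only.

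The members and lists were chosen with earlier results of these data known. The genes named were drawn from the members, their neighbours, for each listed Arabidopsis locus the match of highest mean FPKM, and the 3 genes nearest in pattern; other matches of a locus were named after values were seen. Sequences were not used here.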

Additional observations from a re-analysis of the deposited data

Results flagged for a closer look

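For all 5 morning clock genes the differences of the lines from WT were unequal, as tested by HOE8 against HOE1 in edgeR. The labels give no time of day of collection, and its part in these differences was not tested. The log2 difference was 7.18 for Manes.01G239000, 6.09 for Manes.05G015600, 5.01 for Manes.09G079800, 2.71 for Manes.01G123100 and 0.98 for Manes.02G080700. In each case 3 of 3 HOE8 libraries lay above every HOE1 library. Over all genes tested, 32.7% were called higher and 33.8% lower in HOE8 than in HOE1, and 34.2% did not overlap in the higher direction.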

How the results depend on the processing

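Across scaling by RLE size factors or upper quartile, DESeq2, no count filter, a minimum count of 50, only the groups compared, the replicate block and limma on log2(FPKM + 1) or log2(FPKM + 0.1), 134 of 135 member fold changes kept their direction and side of the threshold, as did 134 of 135 when 1 library was left out. The exceptions were Manes.05G015600 in HOE1 against WT with limma on log2(FPKM + 1), at 0.26 (adjusted p = 0.059), against 0.29 (adjusted p = 0.047) on log2(FPKM + 0.1), and without WT replicate 3 (adjusted p = 0.051; leave-one-out range 0.31 to 0.43), and the cause was not tested. In HOE1 against WT, the median of all genes was -0.0662 with limma on log2(FPKM + 1) and -0.082 on log2(FPKM + 0.1), against -0.00465 under TMM. In HOE8 against WT, limma on log2(FPKM + 0.1) put this median at -0.15, against -0.05 under TMM. Replicate numbers did not pair the samples: correlations of same-numbered libraries ran from -0.04 to 0.03, and 4 of 9 libraries correlated best with one of their own number. With the replicate block, 5 of 5 members were higher in each comparison and the log2 fold change of Manes.05G015600 in HOE1 was 0.37 (adjusted p = 0.0074). Depth limits the RVE8 match in WT most, with 107 reads in all.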
